A study of Mus musculus with 6 samples.

Results

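Embryonic neurons that carried transcripts of both Prdm13 and Sox14 were examined among mouse hypothalamic cells that had been sorted for Pomc-DsRed fluorescence at E13.5, E15.5 and E17.5. A cell was a member when it held at least 1 unique molecular identifier (UMI, 1 counted transcript) of Prdm13 and at least 1 of Sox14, fewer than 2 UMIs of Tac2, and fewer than 10 UMIs of Pomc per 10000 UMIs of the cell. This rule chose 27 of 1796 cells at E13.5, 79 of 2078 at E15.5 and 26 of 1139 at E17.5, together 132 of 5013. The study profiled red fluorescent cells of C57BL/6 mice whose parents both carried POMCDsRed/+, at 6 ages from E11.5 to P12, with droplet sequencing. Each age was 1 library made from a pool of at least 6 animals, and every deposited cell holds at least 1 Pomc UMI, so that all the cells compared here, members and others, passed both the sort and that filter. The fluorescent protein marks cells in which the Pomc transgene is or was active, and these include cells that hold little Pomc transcript when they are collected. No treatment is given for any of the 3 embryonic groups, which are defined by age alone.

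Prdm13 encodes a zinc finger protein of the PR domain family. In the dorsal spinal cord and the cerebellum it acts downstream of Ptf1a and favours the GABAergic over the glutamatergic fate, and in the hypothalamus it is known from the dorsomedial region, where it is found with Nkx2-1. Sox14 encodes a transcriptional repressor of the SoxB group that marks several sets of neurons in the diencephalon. Cells of the embryonic arcuate region that once expressed Pomc are known to give rise to neurons of other kinds, among them the AgRP neurons and the Tac2 neurons, which make neurokinin B.

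Members made up 1.5% of the cells at E13.5 (exact binomial 95% interval 0.993 to 2.18), 3.80% at E15.5 (3.02 to 4.72) and 2.28% at E17.5 (1.5 to 3.33). With 1 library per age no test between ages was possible, and all intervals cover counting error only. At 3000 UMIs drawn from each cell, 8, 25 and 7 cells passed, or 0.446% (0.193 to 0.876), 1.21% (0.786 to 1.79) and 0.632% (0.254 to 1.30). The share at E15.5 was again the highest of the 3, but its interval overlapped those of both other ages. In the E11.5 library 1 cell held a Prdm13 UMI and no cell of 1498 passed, with an exact binomial upper limit of 0.246%. At P5 75 of 3909 cells passed, and at P12 8 of 3533.

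**Figure D1:**
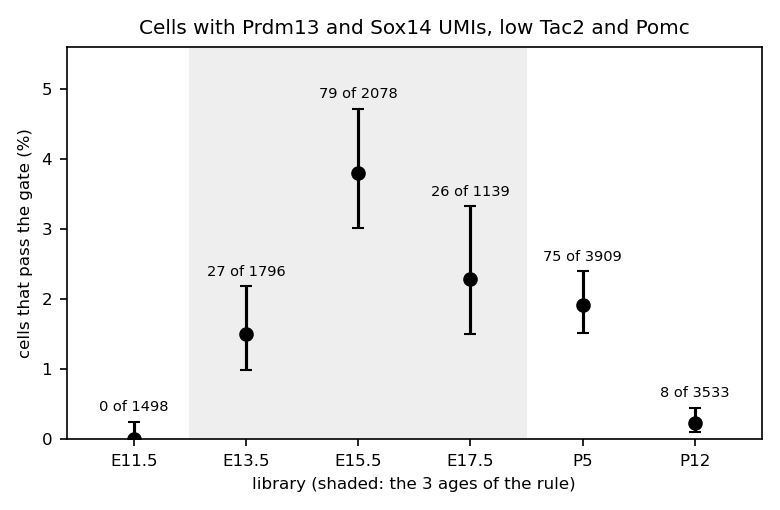
Share of the cells of each library that passed the rule, in percent, against age, with exact binomial 95% intervals as bars and the counts printed above them. The share was 3.80% at E15.5, against 1.5% at E13.5 and 2.28% at E17.5, and no cell passed at E11.5.

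Most cells with Prdm13 held Sox14 too, whereas a smaller part of the cells with Sox14 held Prdm13. Of the cells with a Prdm13 UMI, 29 of 30 at E13.5, 93 of 112 at E15.5 and 33 of 41 at E17.5 also held Sox14. Of the cells with a Sox14 UMI, 4.63%, 15.05% and 9.71% held Prdm13. Over all cells of the 3 libraries, Sox14 was held by 34.9%, 29.7% and 29.9%. Prdm13 was held by 30 of 1796, 112 of 2078 and 41 of 1139 cells. In members Prdm13 had a median of 1 UMI at each age and Sox14 of 10, 6 and 2. The part of this depth in the unequal shares was not tested. Among 62 non-neuronal cells, those with at most 1 of the 6 neuronal genes listed next, none held a Prdm13 UMI and 2 held a Sox14 UMI. With 3 cells taken as the bound for a count of 0, the share with Prdm13 could be up to 4.84%.

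The label was checked against neuronal genes that the rule did not use. All 132 members held UMIs of at least 3 of Tubb3, Syt1, Mapt, Snap25, Stmn2 and Elavl3, and 85 held all 6, but 4848 of all 5013 cells passed the same criterion, so that it does not set members apart. The comparison cells, called other neurons below, were the remaining cells of the same library that passed this neuronal criterion, 1672 at E13.5, 1936 at E15.5 and 1108 at E17.5. Members held a median of 12915 UMIs against 12899 in other neurons at E13.5, 13776 against 10578.5 at E15.5 and 9316 against 8046.5 at E17.5, so that they were the deeper cells at the later ages. No barcode was shared between members of different libraries. A doublet caller marked 2 of the 132 members, both among the 79 of E15.5. Of other neurons it marked 19 of 1672 at E13.5, 4 of 1936 at E15.5 and 7 of 1108 at E17.5. The share marked was thus larger in members at E15.5 and smaller at the other ages. Of the 8 astrocyte and oligodendrocyte markers none was called, and 3 had no UMI in any member (Olig1, Olig2 and Sox10). Together the 8 summed to 0.908, 1.15 and 1.10 in members against 0.813, 0.806 and 0.497 in other neurons, and to 13.4 and 12.1 in the non-neuronal cells of E13.5 and E15.5. The part of such RNA in the members' levels was not tested. Markers of microglia, vascular leptomeningeal cells, endothelium and pituitary gave no measured gene among members and other neurons. The 8 leptomeningeal markers, all of them detected in members, summed to 2.55 UMIs per 10000 in members at E13.5, 0.17 at E15.5 and 0.03 at E17.5, against 4.44, 2.27 and 0.02 in other neurons and 128 and 113 in the non-neuronal cells of these first 2 ages. A single E13.5 member, at 48.0, carried most of the members' sum at that age. The 10 microglial markers, 4 of them without a UMI in any member, summed to between 0.06 and 0.12 in members. Of the 8 pituitary markers, 7 had no UMI in any member.

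The 4 genes of the rule describe how the members were chosen and are no finding. Prdm13 (chr4:21677480-21685963 in GRCm38) was sparse, with a median of 1 UMI per member at each age and a highest value of 6, 6 and 3 UMIs. Sox14 (chr9:99874106-99876170) had a median of 10, 6 and 2 UMIs per member. Just inside the limits, 83 members had exactly 1 Prdm13 UMI, 18 had exactly 1 Sox14 UMI, and 12 had 1 Tac2 UMI. The highest Pomc level inside was 7.25, 8.73 and 7.27 per 10000 UMIs, and the lowest among cells left out by it was 12.5, 11.7 and 12.3. Tac2 alone left out 0, 10 and 6 cells that held both genes, with 2 to 25 UMIs at E15.5 and 2 to 6 at E17.5, and Pomc alone left out 2, 3 and 1.

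Members were then set beside other neurons of their own library to ask which genes go with the pair Prdm13 and Sox14. A level is the UMIs of a gene per 10000 UMIs of the cell, averaged over cells, and folds are ratios of levels after 0.1 is added to both. Of 7871 genes with a level of at least 0.1 in either class in each library, 14 (0.178%) were at least 2-fold higher in members in each of the 3 libraries with a level of at least 0.5, and 6 (0.0762%) were at least 2-fold lower in each. Within single libraries the same limits gave 51, 43 and 59 higher genes and 107, 46 and 52 lower ones. Since the members were chosen on UMIs of the same cells, these counts describe the members and carry no test. Without the E17.5 library, the shallowest, 31 genes were higher and 20 lower, without E13.5 15 were lower, and with 0.5 in place of 0.1 added 4 were higher. The median log2 ratio over all measured genes was -0.03 at E13.5, -0.02 at E15.5 and -0.03 at E17.5.

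Transcription factors and cofactors were 4 of the 14 higher genes. Bcl11b (chr12:107910403-108003602), also known as Ctip2, is a zinc finger factor best known from subcerebral projection neurons of the cortex. Its level in members was 2.39 at E13.5, 2.43 at E15.5 and 1.43 at E17.5, against 0.520, 0.709 and 0.313 in other neurons, or 4.02-, 3.12- and 3.70-fold higher. Summed over members it was 2.45 per 10000 UMIs (exact Poisson 95% interval 1.97 to 3.0), 2.48 (2.2 to 2.79) and 1.68 (1.22 to 2.27). A Bcl11b UMI was seen in 23 of 27, 68 of 79 and 13 of 26 members, and in 29.8%, 29.3% and 10.9% of other neurons. At 3000 UMIs per cell these shares were 55.6%, 44.3% and 30.8% in members against 11.1%, 13% and 6.11% in other neurons, so members were also ahead at equal depth.

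Lhx5 (chr5:120431699-120441223), a LIM homeodomain factor of the early forebrain and of spinal inhibitory neurons, was measured at 1.25, 0.981 and 1.82 in members and at 0.111, 0.303 and 0.417 in other neurons. It was found in 66.7%, 72.2% and 69.2% of members, so that it was as widespread at E17.5 as at E13.5. The antisense gene Gm27199 (chr5:120419659-120431767) overlaps the start of Lhx5 on the opposite strand, and its level was 1.02, 1.52 and 2.35 against 0.101, 0.364 and 0.839. The strand setting of the counting is not given in the sources used here, so reads in the overlap cannot be assigned to either gene with certainty.

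Sox2, the SoxB1 factor of neural progenitors that some hypothalamic neurons retain, had levels of 3.5, 3.41 and 4.05 in members and of 1.49, 1.34 and 1.92 in other neurons. It was detected in the most members of the 14 genes, 125 of 132. Lmo4, a LIM-only cofactor, stood at 1.01, 1.97 and 1.88 against 0.449, 0.764 and 0.259, and its fold was 2.02, 2.40 and 5.52. Lmo4 at E13.5 and Sox2 at E17.5 (2.05-fold) lay close to the limit, as did Slit2 and Cacna2d1 at E15.5 and Akap7 at E17.5, each with 2.06-fold. Lmo4 was also found in non-neuronal cells, at 2.80 at E13.5 and 3.23 at E15.5, and whether RNA of such cells takes part in its level was not tested.

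A second set of higher genes encodes secreted and surface proteins. Nell2, a secreted ligand that takes part in axon guidance, had levels of 4.6, 4.36 and 1.57 in members and of 1.92, 1.23 and 0.562 in other neurons. Slit2, the ligand of Robo receptors, stood at 1.01, 0.757 and 0.906 against 0.356, 0.315 and 0.278. Serpine2, a secreted inhibitor of serine proteases, was at 3.03, 5.07 and 1.05 against 0.428, 1.02 and 0.430, so that its fold was 5.92 at E13.5 and 2.17 at E17.5. Cnr1, the neuronal cannabinoid receptor, showed 2.09, 2.0 and 1.01 against 0.909, 0.657 and 0.410. Cacna2d1, an auxiliary subunit of voltage-gated calcium channels, showed 3.18, 2.13 and 2.96 against 1.07, 0.984 and 0.851, and a UMI of it was present in all 27 members at E13.5. Akap7, an anchoring protein of protein kinase A, was measured at 1.34, 1.92 and 1.29 against 0.295, 0.304 and 0.573.

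Chchd10 (chr10:75933130-75937747), a protein of the mitochondrial intermembrane space, had the highest level of the 14 genes. It was measured at 12.7, 10.1 and 4.90 in members and at 2.29, 1.84 and 1.56 in other neurons. Members with a UMI of it were 27 of 27, 76 of 79 and 20 of 26, so that at E17.5 alone a sizeable part of the members lacked it. The long noncoding gene Gm2694 (chr8:87460469-87525554) was at 6.50, 2.87 and 0.874 against 2.21, 0.940 and 0.260.

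Gm2694 spans Cbln1 (chr8:87468405-87472609) on the opposite strand, and the pair can share reads if strand was ignored. Cbln1 is a secreted organizer of synapses and was listed with Islr2 and Bcl11b as a marker of these neurons. Its level was 2.83, 1.62 and 0.200 in members against 1.02, 0.579 and 0.140, or 2.60-, 2.54- and 1.25-fold higher, so that it met the limit at E13.5 and E15.5 but not at E17.5. Islr2, a leucine-rich repeat membrane protein of axon guidance, was at 6.43, 4.56 and 1.27 against 4.30, 1.64 and 0.435, and fell short of 2-fold at E13.5 alone, with 1.48-fold. Of the 3 listed markers, Bcl11b was thus the only one past the limit in each library. All 3 were detected together in 71 of 132 members (53.8%) and in 424 of 4716 other neurons (8.99%). By age, 21 of 27, 45 of 79 and 5 of 26 members held all 3, and 10 of the 26 members of E17.5 held none.

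**Figure D2:**
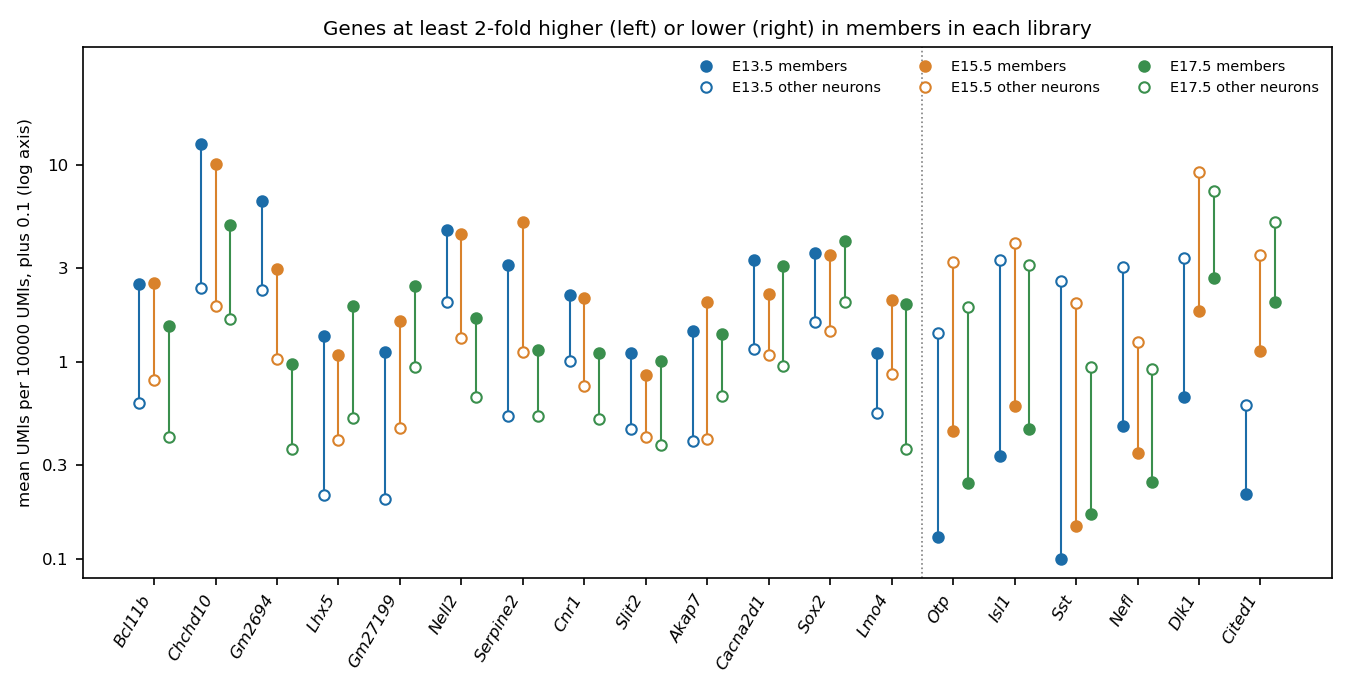
Mean level in members (filled) and other neurons (open) of 13 of the 14 genes at least 2-fold higher, left of the dotted line, and the 6 at least 2-fold lower, right of it, in UMIs per 10000 plus 0.1 on a log axis, with 1 color per library. Chchd10 has the highest member level, 12.7 at E13.5, and Sst in E13.5 members sits at the 0.1 that was added, since it had no UMI.

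The 6 lower genes include factors that define neighbouring arcuate neurons. Isl1 (chr13:116298281-116309689), the LIM homeodomain factor needed for Pomc expression, was at 0.232, 0.499 and 0.357 in members and at 3.19, 3.93 and 3.03 in other neurons, or 9.90-, 6.72- and 6.84-fold lower. An Isl1 UMI was present in 4 of 27, 18 of 79 and 7 of 26 members, and in 49.3%, 69.6% and 68.1% of other neurons. Otp (chr13:94875602-94885130), a homeodomain factor of neuroendocrine and AgRP neurons, was at 0.029, 0.346 and 0.143 against 1.30, 3.12 and 1.81. An Otp UMI was present in 3.70%, 24.1% and 7.69% of members and in 10.3%, 34.3% and 30.2% of other neurons, so that Isl1 was the more widespread of the pair outside the members.

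Sst, which encodes somatostatin, had no UMI in the 27 members of E13.5 and stood at 0.0465 at E15.5 and 0.0691 at E17.5, against 2.50, 1.90 and 0.845 in other neurons. With 3 UMIs over the members as the floor it was at least 21.7-fold lower at E13.5 on summed counts. Nefl, the neurofilament light chain, was at 0.370, 0.244 and 0.146 against 2.93, 1.16 and 0.817. Dlk1, a transmembrane protein with EGF repeats related to Notch ligands, was at 0.564, 1.72 and 2.57 against 3.29, 9.18 and 7.29, and Cited1, a transcriptional coregulator, at 0.114, 1.03 and 1.91 against 0.505, 3.42 and 5.07. For Dlk1 and Cited1 the members' level was higher at each later age, yet it stayed below that of other neurons of the same library. A single E15.5 member, at 56.9, carried a large part of the members' Dlk1 level at that age.

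Among 26 transcription factors of the tuberal hypothalamus, 15 were measured, of which 1 was called higher (Sox2) and 2 lower (Isl1 and Otp). Nkx2-1, the homeodomain factor of this region, was at 10.5, 6.71 and 3.52 in members against 3.56, 3.61 and 3.12, so that its fold went from 2.91 at E13.5 to 1.12 at E17.5. Six3 was at 5.62, 5.01 and 2.90 against 2.08, 2.2 and 1.59, and passed 2-fold at the earlier ages alone. Tbx3, a T-box factor of arcuate neurons, was lower in members, at 0.124, 1.00 and 1.82 against 0.327, 1.65 and 2.69, without reaching the limit. The median log2 ratio of the 15 genes was 0.21 at E13.5, and 9 of them were above 0, as were 3658 of all 7871 measured genes.

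Of 13 genes of the ventromedial nucleus 8 were measured, of which 2 were called higher (Cnr1 and Lmo4) and none lower, with a median log2 ratio of 0.92 at E13.5, 0.99 at E15.5 and 1.18 at E17.5. The ratio was above 0 for 7, 8 and 6 of the 8 genes, and for 3658, 3642 and 3710 of all 7871 measured genes. Nr5a1, the nuclear receptor that defines that nucleus, was at 1.03, 0.744 and 0.129 against 0.536, 0.25 and 0.0311, and passed 2-fold at E15.5 alone. Fam19a1, which is not on that list and encodes a secreted protein of the TAFA family, was at 1.18, 0.724 and 0.477 against 0.0468, 0.134 and 0.117, and its E17.5 level was just under the minimum of 0.5. Adcyap1, which encodes the neuropeptide PACAP, was at 0.384, 0.583 and 0.359 against 0.288, 0.177 and 0.0481. Nr5a1, Adcyap1, Cnr1 and Fam19a1 are also among the features the study gave for its Prdm13 cluster, which were chosen on these samples, so that their direction here is not independent evidence.

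The partners that Prdm13 is known with elsewhere were mostly too low to measure. Of 13 genes of the spinal and cerebellar programmes only Lhx5 was measured, and 7 had no UMI in any member (Ptf1a, Neurog1, Tlx1, Tlx3, Lbx1, Pax2 and Gbx1). In the Prdm and Bcl11 families 5 of 15 genes were measured and Bcl11b alone was called. Its relative Bcl11a was at 3.29, 2.44 and 1.39 against 1.90, 1.56 and 0.764, under 2-fold at each age. Prdm12, which is needed for Pomc expression, was at 1.14, 1.51 and 0.428 against 0.598, 0.486 and 0.282, so that it passed 2-fold at E15.5 alone.

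No gene that marks the peptidergic neurons of the arcuate nucleus was called higher in members. Of 16 POMC neuron genes 9 were measured, none higher and 1 lower (Isl1). The rule kept cells at or above its Pomc limit out of the members but not out of the other neurons, which bears on this comparison. With other neurons held below the Pomc and Tac2 limits, the mean log2 ratio of Isl1 was -2.72, against -2.94 without these limits. All genes called higher in that setting were among the 14, so none was a POMC neuron gene. Of 11 genes of the kisspeptin, neurokinin B and dynorphin neurons 1 was measured, Nhlh2, with log2 ratios of 0.21, 0.99 and 0.89, and none was called. The 11 genes summed to 4.51, 6.54 and 7.73 in members against 4.02, 3.66 and 4.74 in other neurons. Nhlh2 alone made up most of these sums in both classes, so that they say little of the other genes on the list. The rule kept cells with at least 2 Tac2 UMIs out of the members but not out of the other neurons. Of 7 AgRP and Sst neuron genes 4 were measured, 2 of them lower (Otp and Sst), and the median log2 ratio was -2.67 at E15.5 and -2.73 at E17.5. At E13.5 that median was -3.01, or -2.79 with Sst and Npy, which had no UMI in members, set to the bound of 3 UMIs. Npy in members was at 0, 0.189 and 0.353 against 0.494, 1.51 and 5.99, and Agrp at 0, 0.0565 and 0.334 against 0.0153, 0.354 and 2.29. Of 28 neuropeptide genes 4 were measured and 10 had no UMI in any member, and Sst was the one called.

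Of the transmitter genes, 2 of 14 were measured and neither was called. Slc17a6, the vesicular glutamate transporter of hypothalamic neurons, was at 0.744, 0.724 and 0.801 in members and at 0.806, 0.418 and 0.280 in other neurons. Its level in members differed little between ages, while that of other neurons was lower at each later age, and the fold was 0.932, 1.59 and 2.37. A UMI of it was seen in 74 of 132 members (56.1%, exact binomial 47.2 to 64.7) and in 34.8% of other neurons. At 3000 UMIs per cell the shares were 11.1%, 20.3% and 23.1% in members against 20.1%, 9.33% and 7.04%. Any of Gad1, Gad2 or Slc32a1, the genes of GABA synthesis and packaging, was seen in 17 members (12.9%, 7.68 to 19.8) and in 26.5% of other neurons. By age the shares were alike at E13.5, 11.1% of members against 12.7%, and apart at E15.5, 11.4% against 32.95%, while at E17.5 the members' 19.2% had an interval of 6.55 to 39.4 that held the 36.2% of other neurons. Both kinds were seen in 11 members and neither in 52, so the transmitter of many members was not read at this depth.

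Other groups gave few calls. Of 46 genes of axon growth and guidance 30 were measured, of which 2 were called higher (Slit2 and Nell2) and none lower, with a median log2 ratio of 0.06, 0.06 and 0.15. Of 29 synapse organizers and vesicle genes 24 were measured and none was called. Cbln2, a relative of Cbln1, was at 0.162, 0.0717 and 0 in members and at 3.05, 0.851 and 0.140 in other neurons. It was lower in members at E13.5 and E15.5, where Cbln1 was higher. At E17.5 Cbln2 had no UMI in the 26 members, for which 3 UMIs would be a level of 0.117. Cbln1 rested on 7 UMIs in 5 of these members, so neither direction is clear at that age. Of 11 granin and peptide processing genes 9 were measured and none was called. Of 30 hormone and peptide receptors 5 were measured and Cnr1 alone was called. None of the 4 measured genes of progenitors and the cell cycle, nor the 1 of the Dlx GABA neurons nor the 3 of a list of Ebf and Nr4a2 neuron genes, was called.

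Sox14 was present in many other neurons, so a narrower comparison was added after the values above were seen, with neurons that held Sox14 and passed the Tac2 and Pomc limits but had no Prdm13 UMI (263, 307 and 181 cells). Of 7700 genes measured, 3 (0.039%) were at least 2-fold higher in members in each library, Bcl11b, Chchd10 and Lmo4, and 2 (0.026%) were at least 2-fold lower, Isl1 and Nefl. Bcl11b was at 0.624, 0.835 and 0.233 in the Sox14 neurons without Prdm13, for log2 ratios of 1.78, 1.43 and 2.2. Isl1 was at 3.66, 2.30 and 1.18 there, for log2 ratios of -3.5, -2.0 and -1.49. In contrast, Sox2 was at 3.80, 2.86 and 2.75, for log2 ratios of -0.11, 0.24 and 0.54, so that Sox14 neurons without Prdm13 held Sox2 at levels near those of members. A Slc17a6 UMI was seen in 51.7%, 44.0% and 25.4% of these Sox14 neurons, against 55.6%, 57.0% and 53.8% of members. Over the 3 libraries any of Gad1, Gad2 or Slc32a1 was seen in 17.2% of them, inside the members' interval of 7.68 to 19.8. Most members held 1 Prdm13 UMI, and some neurons without one may hold the transcript unseen, which was not tested.

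Tac2 neurons, those with at least 2 Tac2 UMIs, numbered 75 at E15.5 and 117 at E17.5. They shared a low Isl1 level with members, 0.505 and 0.482 against 0.499 and 0.357, and differed in Bcl11b, with 0.190 and 0.0598 against 2.43 and 1.43. Genes called higher in members were not all higher in them than in Tac2 neurons. Gm27199 was at 2.23 and 3.12 against 1.52 and 2.35 in members, and Lhx5 at 1.80 and 1.49 against 0.981 and 1.82. Akap7 was at 1.23 against 1.29 at E17.5.

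**Figure D3:**
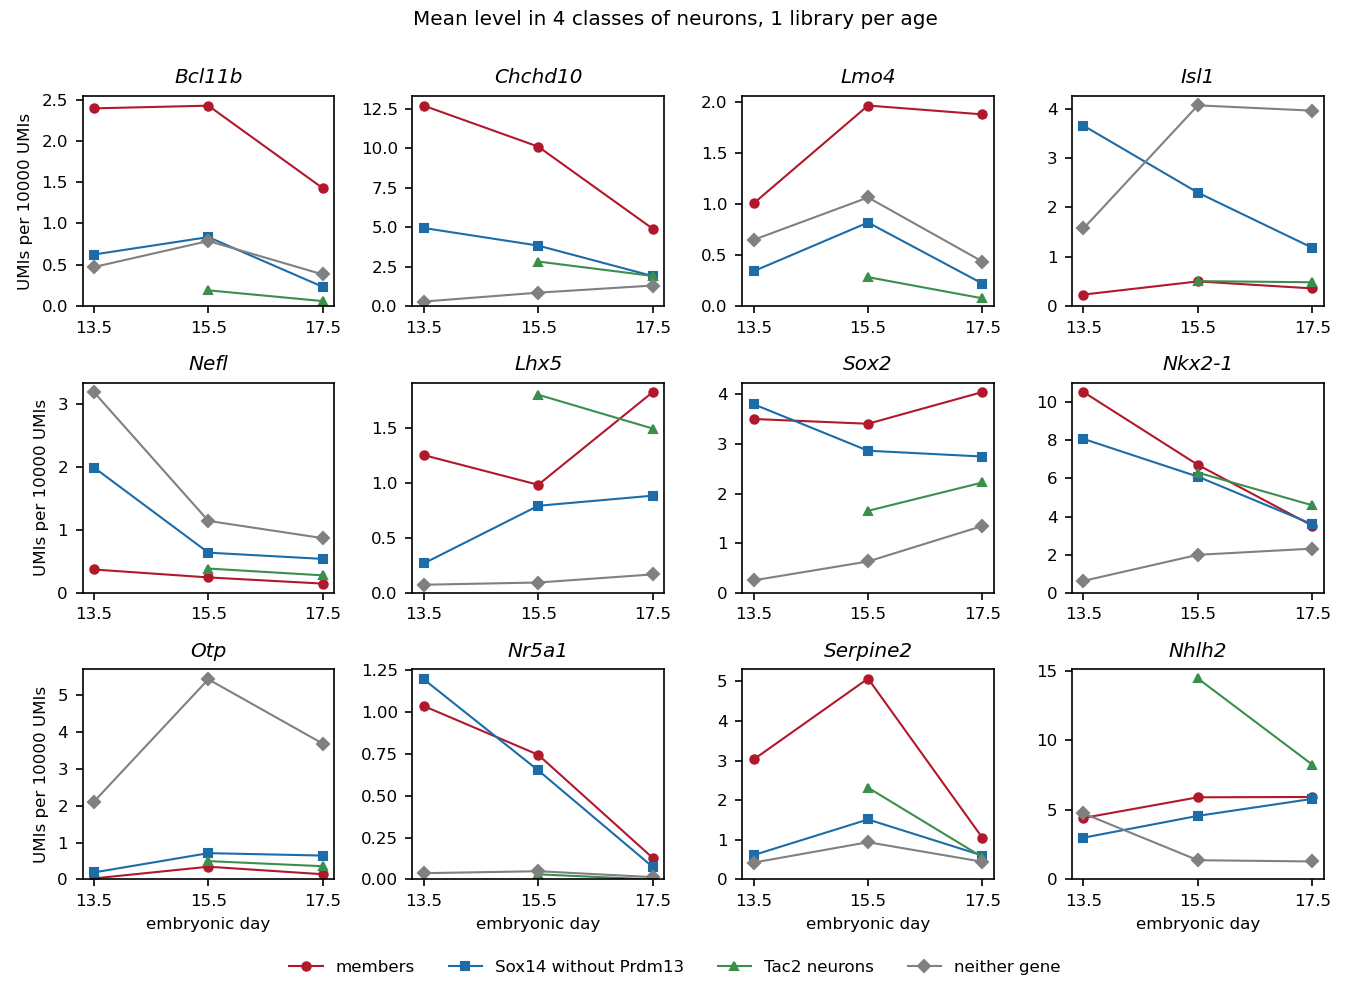
Mean level of 12 genes, in UMIs per 10000, against embryonic day in 4 classes of neurons, members, Sox14 neurons without Prdm13, Tac2 neurons (E15.5 and E17.5) and neurons with neither Prdm13 nor Sox14, with 1 library per age and lines only joining the points. Bcl11b, Chchd10 and Lmo4 lie highest in members at each age, Isl1 is low in members and Tac2 neurons, and Lhx5 is higher in Tac2 neurons than in members at E15.5.

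Members varied among themselves, and 1 division of them, by a Bcl11b UMI, was made. It was chosen after the values were seen and carries no test. Members with one numbered 23 of 27 at E13.5 (85.2%), 68 of 79 at E15.5 (86.1%) and 13 of 26 at E17.5 (50.0%, exact binomial 29.9 to 70.1). Those with Bcl11b were deeper, with a median of 14457.5 UMIs against 9903 at E15.5 and 12156 against 7459 at E17.5, and depth can set part of a division by 1 UMI. Its part was not tested. At 3000 UMIs per cell, as above, the intervals of the shares with Bcl11b at the 3 ages overlapped, at 35.3 to 74.5, 33.1 to 55.9 and 14.3 to 51.8.

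The genes named here for that division were likewise picked after their values were seen. At E15.5 members with Bcl11b had more Islr2 than those without (5.11 against 1.16), more Six3 (5.49 against 2.07), more Nr5a1 (0.839 against 0.153) and more Fam19a1 (0.841 against 0). They had less Nhlh2, a basic helix-loop-helix factor of peptidergic neurons (4.74 against 13.0), and less Tbx3 (0.645 against 3.23). In Tac2 neurons of that library the levels of Islr2, Six3, Nhlh2 and Tbx3 were 1.03, 0.826, 14.4 and 3.59, which for these 4 genes lay nearer to members without Bcl11b than to members with it. At E15.5 Isl1, Nkx2-1 and Cited1 went the other way, with 0.323, 6.35 and 0.508 in members with Bcl11b, 1.58, 8.95 and 4.29 in those without, and 0.505, 6.31 and 2.15 in Tac2 neurons, nearer to the former. The Isl1 level in members without Bcl11b came from 2 of the 11 cells. At E17.5 the division showed Islr2 at 2.16 against 0.374, Lmo4 at 3.24 against 0.528, Nhlh2 at 3.34 against 8.51, Tbx3 at 1.01 against 2.64, and Esr1, the estrogen receptor, at 0.298 against 1.01. Tac2 neurons held 0.275, 0.0759, 8.25, 3.30 and 1.06 of these genes.

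Other genes did not follow the division. At E17.5 Sox2 was at 4.06 with Bcl11b and 4.04 without, and Slit2 at 0.883 and 0.93. Prdm13 itself stood at 1.42 and 1.65, but the rule put a UMI of it in every member. Its values therefore cannot show whether it follows the division. Lhx5 was lower with Bcl11b at the later ages, at 0.875 against 1.64 at E15.5 and 1.08 against 2.56 at E17.5, but higher with it at E13.5, at 1.34 against 0.742 from 4 cells without. Among all 132 members, Bcl11b was found together with Islr2 in 94, with Chchd10 in 102 and with Isl1 in 25.

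**Figure D4:**
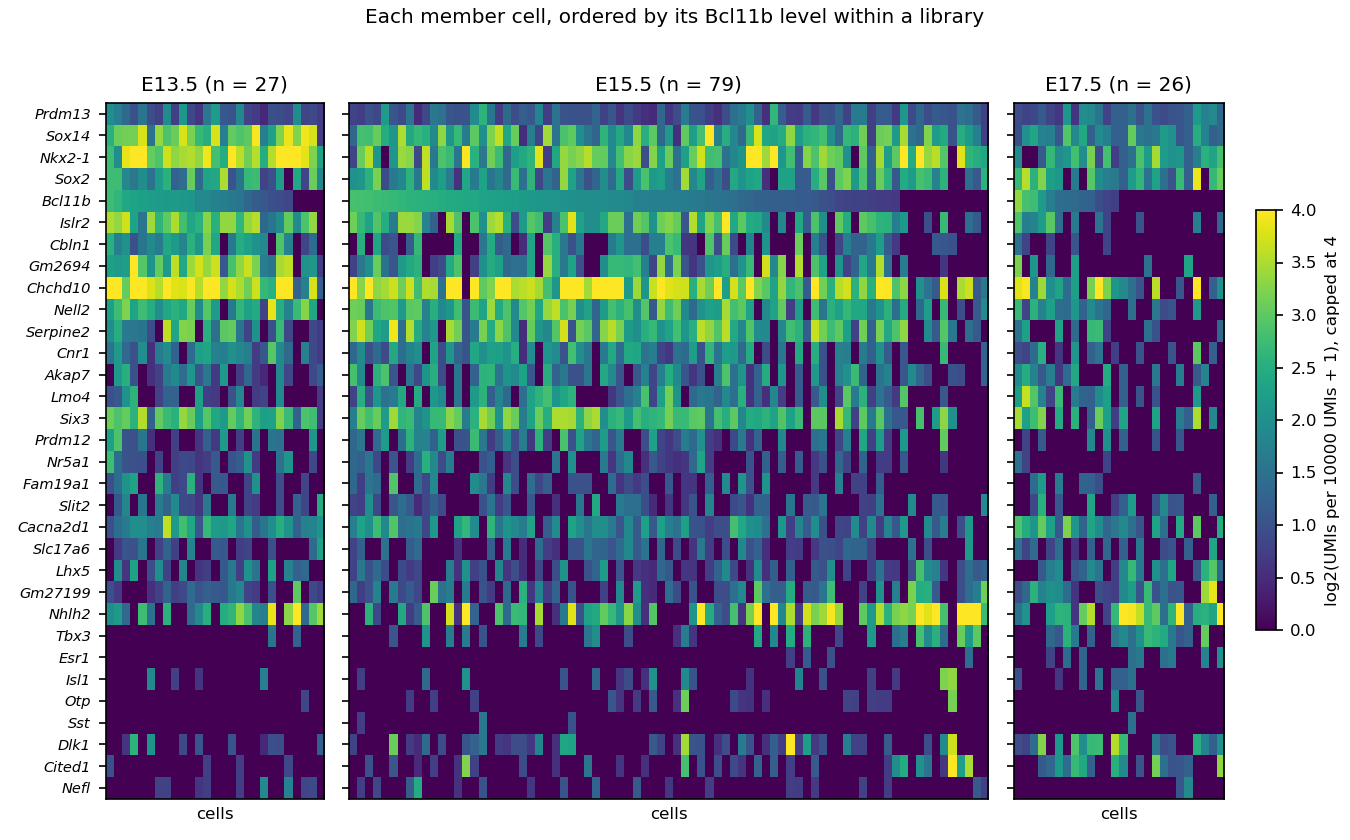
Each of the 132 members as a column, by library and from the highest to the lowest Bcl11b level, with log2 of UMIs per 10000 plus 1 as color, capped at 4. Cells without Bcl11b stand at the right of each panel, 4 at E13.5, 11 at E15.5 and 13 at E17.5, where at the later ages Islr2 is sparse and Nhlh2 and Tbx3 are more frequent.

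**Figure D5:**
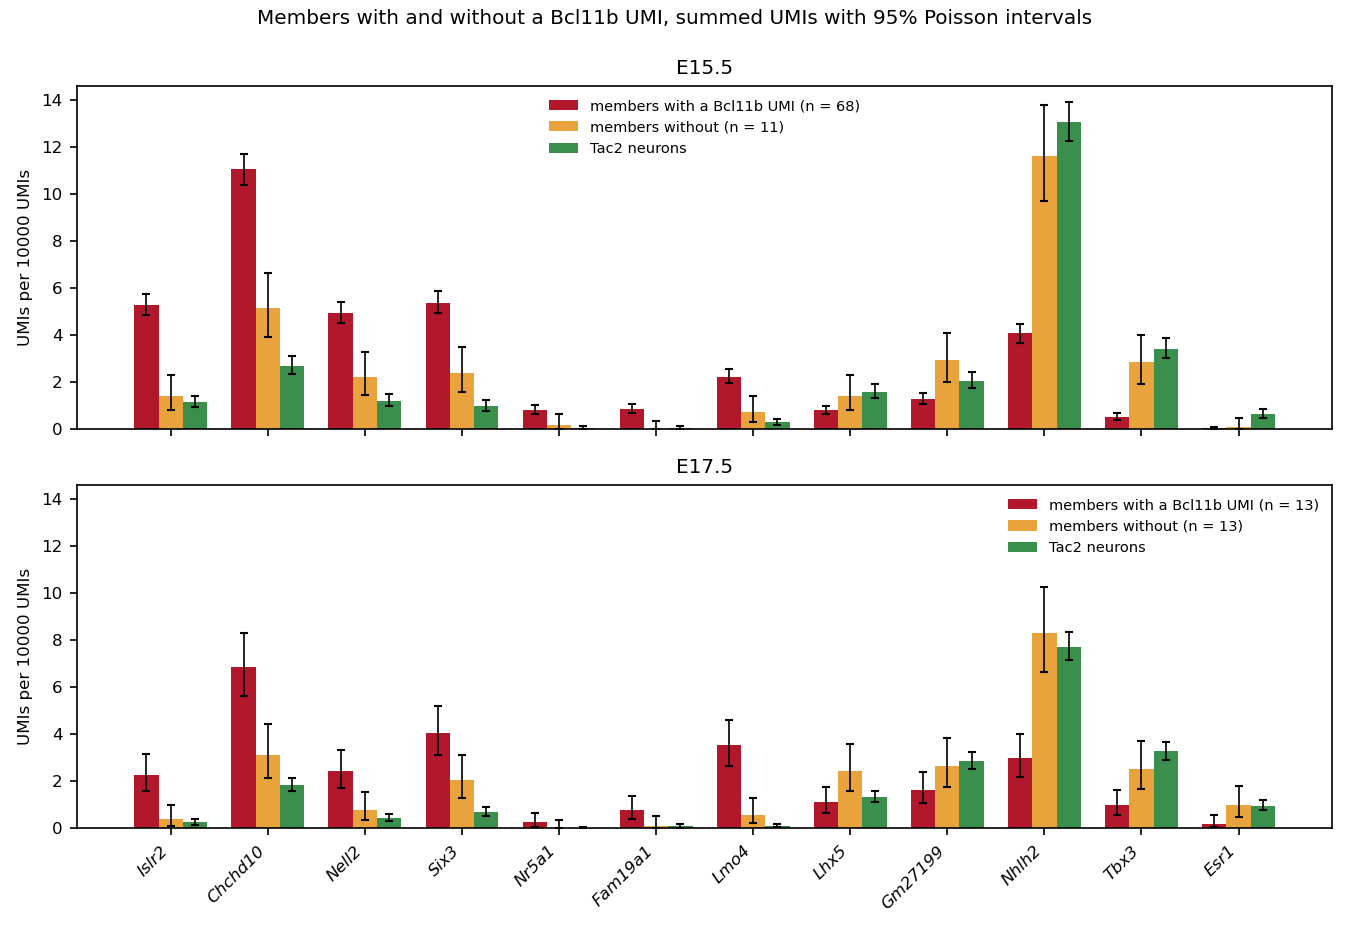
Summed UMIs per 10000 of 12 genes at E15.5 (top) and E17.5 (bottom) in members with a Bcl11b UMI (68 and 13 cells), members without (11 and 13) and Tac2 neurons, with exact Poisson 95% intervals that cover counting error only. For Nhlh2 and Tbx3 the bars of members without Bcl11b lie near those of Tac2 neurons, and for Islr2 and Six3 members with Bcl11b stand highest.

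Between E13.5 and E17.5 the genes with the largest differences with age in members moved the same way in other neurons. Scg2, a granin of secretory granules, was at 0.125, 0.406 and 3.19 in members, a log2 difference of 3.87 between the outer ages, against 2.03 in other neurons. Gem, a small GTPase, was at 0, 0.115 and 0.808 in members, for 3.18 against 1.5. The other 3 of the 5 genes with the largest increase were Fam183b, Cited1 and Hs6st2, with 3.41, 3.23 and 3.16 against 2.65, 3.09 and 2.0. In the opposite direction S100a10, a calcium-binding protein of the S100 family, was at 12.9, 7.64 and 0.977 in members, for -3.60 against -2.71. The embryonic globin Hbb-y was at 6.81, 0.481 and 0, for -6.11 in members and -6.10 in other neurons, while Hba-a1 and Col3a1 were at -3.33 and -3.29 against -3.44 and -4.13. Globin and collagen are products of blood and connective tissue cells, and their RNA was also present in other neurons, and its source was not tested.

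The cells that passed the rule after birth were used only to see whether the 20 called genes pointed the same way. At P5, 3 of the 14 higher genes were at least 2-fold higher in the 75 cells and 9 were above other neurons, while 4 of the 6 lower genes were at least 2-fold lower and all 6 were below. At P12, 10 of 14 and 4 of 6 passed 2-fold in the 8 cells, and 13 and 6 pointed the same way. The shares over all genes of these 2 libraries are not given here, so these counts cannot be judged against them. Bcl11b was at 0.0898 in the P5 cells against 0.0654 in other neurons, and 4 of the 75 held a UMI of it, whereas Lhx5 was at 1.94 against 0.536 and Isl1 at 0.0346 against 1.965. At P12 Bcl11b was at 1.23 against 0.0405, from 3 cells of the 8. The postnatal libraries were made with a later version of the reagents, and their ages and reagents cannot be told apart.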

How the data were processed

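The authors made UMI counts per gene and cell with Cell Ranger (versions 2.2.0 and 3.0.0 in the submitters' processing notes, which also name mm10 and Seurat 3.0), removed cells by genes, UMIs and mitochondrial and hemoglobin share, kept cells with a Pomc UMI, and deposited the counts without normalization. The annotation used for counting is not given in the sources used here. Gene positions are from GENCODE M21 (GRCm38).

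Counts were divided by the cell's total and multiplied by 10000, and averaged over cells. Named were the rule genes and listed markers, called or defining genes of each fixed list, the 15 higher and 10 lower called genes with the largest smallest change, and the 5 genes with the largest change each way between E13.5 and E17.5 within members. Members, lists and markers were chosen with earlier results of these data known. Each age was 1 library, so nothing was tested between groups. Intervals are at 95%. Total UMIs in members were 375525, 1103605 and 255490. Doublets were kept, and cells with the highest 5% of Scrublet scores were left out as an alternative. Cells were thinned to 3000 UMIs, which 49 cells did not reach. The code that makes the calls was checked on simulated counts, which says nothing of the calls themselves. Python 3.11.15, numpy 2.4.6, scipy 1.17.1, pandas 2.3.3 and scanpy 1.11.5 were used. Some genes, including 1 of the 14 higher ones, are not reported here.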

Additional observations from a re-analysis of the deposited data

Results flagged for a closer look

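Insm1, a zinc finger factor of neuroendocrine differentiation, pointed in opposite directions at the ends of the series, chosen for this after its values were seen. Its log2 ratio of members over other neurons was -1.60 at E13.5 and 1.08 at E17.5, from levels of 0.125 against 0.580 and 1.33 against 0.575. At E13.5 the members' level rested on few UMIs, 3 in 2 members with Bcl11b and 1 in 1 member without. The difference between the ages was not tested, since each age was 1 library.

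Cells that meet the rule also occur in libraries outside the 3 ages compared. They number 75 at P5 and 8 at P12, where none of the 1498 cells of E11.5 passed. At those ages most cells with both genes were left out by Tac2, 97 of 184 at P5 and 33 of 41 at P12 by that limit alone.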

How the results depend on the processing

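The share of members, the 14 higher and the 6 lower genes were recomputed under other settings. The share of 2.63% became 0.878% when at least 2 UMIs of both Prdm13 and Sox14 were asked for (44 cells) and 0.806% on cells thinned to 3000 UMIs. With at least 2 UMIs, 13 genes were higher and 7 lower, of which 6 and 4 were among the 14 and the 6. With 0.5 in place of 0.1 added to levels, 4 genes were higher. With other neurons held below the Pomc and Tac2 limits, 11 were higher and 8 lower, of which 11 and 5 were among the 14 and the 6. With neurons that held neither Prdm13 nor Sox14 for comparison, 10 were lower. With a minimum level of 0.1 for a call, or with none, 21 were lower. Against Sox14 neurons without Prdm13, 3 were higher and 2 lower, and with members limited to those with a Bcl11b UMI 25 were higher, 13 of them shared. Both of these were chosen after the data were seen.

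Leaving out 1 library at a time gave 14 to 31 higher and 8 to 20 lower genes, and the 14 and the 6 were among them each time, since fewer libraries ask for less. Without E17.5 there were 31 higher and 20 lower, and without E13.5 there were 15 lower. Among 330 mean log2 ratios, from 22 genes and 15 alternatives, 302 were at 2-fold or more. Part of that count was fixed by construction. The 20 called genes passed 2-fold in each library, so leaving 1 library out could not bring their means below it. Asking members to be neuronal changed no value. No sign changed, which some settings fixed by construction: adding 0.5 cannot turn an order within a library, asking members to be neuronal left the same cells, and asking for a Bcl11b UMI fixes Bcl11b. The smallest was 0.22, for Sox2 against Sox14 neurons without Prdm13. No paired analysis was possible because each age was 1 library. Prdm13 was read from 1 UMI in 83 of 132 members, which limits how many such cells can be found.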
